A study of Mus musculus with 4 samples.

Results

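Hypoxia-inducible factors (HIFs), their hydroxylases and their targets, 10 genes in all, were followed in mouse ventricles 1 day after birth. The 10 genes were taken as a list of symbols and comprise the alpha subunits Hif1a, Epas1 and Hif3a, the prolyl hydroxylases Egln1 and Egln3, and the targets Vegfa, Ankrd37, Ndrg1, Higd1a and Mxi1, whose products are not metabolic enzymes. All 10 were found among the 53465 genes of the files and passed the filter on low counts, which left 18157 genes. Knockout-labelled mice were Ctnnb1floxP/floxP; alphaMHC-Cre+, and control mice were Ctnnb1floxP/floxP; alphaMHC-Cre-, with 2 libraries in each group. Both groups therefore carry floxed alleles of Ctnnb1, the gene of β-catenin, and differ in a transgene that drives Cre recombinase from a cardiomyocyte promoter. The transgene and the deletion cannot be told apart in this comparison. Nothing in the labels says that the libraries come from separate animals, so p-values measure the spread between these libraries only.

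HIFs are transcription factors made of an oxygen-sensitive alpha subunit and the stable beta subunit Arnt. In the presence of oxygen, prolyl hydroxylases of the Egln family mark the alpha subunits, and the von Hippel-Lindau protein, part of a ubiquitin ligase with elongins B and C and cullin 2, delivers them to the proteasome. When oxygen is low the alpha subunits accumulate and bind hypoxia response elements, and Egln3 is itself among the induced genes. HIF control is mainly of the protein, so messenger RNA levels of the alpha subunits do not report their activity. The heart passes from a low-oxygen fetal setting to air breathing at birth, around the age sampled here.

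Libraries held 45651797 and 34027143 counts in genes in knockout-labelled ventricles 1 and 2, and 43288936 and 44624578 in controls 1 and 2. Ctnnb1, the targeted gene, at 526 and 460 CPM (counts scaled to library size) in the knockout-labelled ventricles and 408 and 434 CPM in the controls, was not lower (log2 difference 0.23 ± 0.20, SE; adjusted p = 0.532, edgeR). That count takes in every exon and every cell type, and which exons Cre removes is not stated, so it does not check the labels and directions here are those of the libraries labelled knockout. The 8 cardiomyocyte markers were all abundant, with a summed level of 55157 and 62843 CPM in the knockout-labelled ventricles and 51296 and 45161 CPM in the controls. Of these markers 4 were higher and 0 lower without overlap, where 26.5% and 29.7% of all tested genes were. Myh7 spread widely, at 4975 and 1127 CPM in the knockout-labelled ventricles and 8645 and 4966 CPM in the controls. T-cell markers summed to 1.26 and 0.980 CPM in the knockout-labelled ventricles, against 176 CPM in control 1 and 4.23 CPM in control 2. In bulk ventricle, fewer cells of a type and less RNA per cell cannot be told apart.

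Upstream sequences from RefSeq on GRCm38.p6 are shown for Hif1a, Ankrd37, Mxi1 and Higd1a, and not for every gene that it covers. Entries were present for 8 of the 10 genes, all but Epas1 and Ndrg1, with 11 start sites in all. The 250 bases before each start were searched on both strands for ACGTG and GCGTG, the core letters of the hypoxia response element. Each of the 8 genes held at least 1 match before at least 1 of its starts (9 of 11 windows). Of the 32851 windows of all RefSeq starts, 38.6% held a match. That share was not matched for GC content, which ran from 50.8% to 86% in the 11 windows. ACGTG also lies inside CACGTG, the E-box bound by MYC-MAX dimers and by clock factors, which 6.02% of all windows held. A match is a run of letters and not a shown binding site. In the sequences below capitals mark the matches, on either strand.
Hif1a: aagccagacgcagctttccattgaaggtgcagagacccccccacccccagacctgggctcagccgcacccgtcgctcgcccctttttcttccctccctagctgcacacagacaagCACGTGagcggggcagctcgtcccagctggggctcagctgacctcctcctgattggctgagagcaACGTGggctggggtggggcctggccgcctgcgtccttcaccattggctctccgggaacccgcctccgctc
Ankrd37: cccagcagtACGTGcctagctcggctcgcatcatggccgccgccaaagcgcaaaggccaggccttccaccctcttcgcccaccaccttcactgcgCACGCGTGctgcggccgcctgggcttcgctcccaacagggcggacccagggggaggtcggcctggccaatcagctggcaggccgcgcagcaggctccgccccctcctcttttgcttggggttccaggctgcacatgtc
Mxi1: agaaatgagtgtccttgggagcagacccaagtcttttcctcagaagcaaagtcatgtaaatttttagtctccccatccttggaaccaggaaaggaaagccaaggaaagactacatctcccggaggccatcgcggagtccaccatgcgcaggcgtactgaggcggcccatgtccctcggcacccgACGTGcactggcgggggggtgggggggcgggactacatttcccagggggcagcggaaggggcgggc
Higd1a: cggtctagcctGCGTGCGTGgcgttcgcgg

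The Hif1a stretch (chr12:73907617-73907866, forward strand) ends 1 base before a RefSeq start and holds an E-box, counted as 1 match on each strand, and 1 further ACGTG. The Ankrd37 stretch (chr8:45999868-46000100, reverse strand) ends 18 bases before the RefSeq start, where an annotated exon begins. It holds 1 ACGTG and a pair of overlapping GCGTG runs on opposite strands. A further ACGTG, which begins 6 bases before the start, lies in that exon and is not printed. The Mxi1 stretch (chr19:53329163-53329412, forward strand) lies before the second of its RefSeq starts, counted along the gene, and its ACGTG begins 66 bases upstream. The window before the first Mxi1 start held no match. That before the third, covered by an annotated exon of the gene, held 1 ACGTG. The window of Higd1a is covered by an annotated exon of the gene, and the 30 bases printed (chr9:121857848-121857877, reverse strand) hold its 2 overlapping GCGTG runs. Hif3a, Egln1 and Egln3 held 2, 2 and 1 matches. Vegfa held 2 before 1 of its 2 starts and 0 before the other, which lies further upstream. In the Vegfa window with matches, 218 of the 250 bases are covered by an annotated exon of the gene.

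No gene of the set passed the main test. edgeR's quasi-likelihood test called 0 of the 10 genes at an adjusted p under 0.05, where 0.011% of all tested genes were called (2 of 18157, both higher). At an unadjusted p under 0.05 it had 3 of the 10, Higd1a and Hif1a higher and Mxi1 lower, against 23.0% of all genes. DESeq2 called the same 3 genes at an adjusted p under 0.05, against 11.2% of the 15692 genes with an adjusted p. limma-voom called 0 of the 10. The authors' deposited table had 2 of the 10 past that threshold, Higd1a higher and Mxi1 lower, where it had 5.83% of genes higher and 4.62% lower. Both knockout-labelled libraries were above both controls for 4 of the 10 genes (26.5% of all tested genes) and below both for 2 (29.7%). The 6 genes without overlap, or 60%, are a share near the 56.2% of all genes. The median log2 fold change of the 10 was -0.0018, against -0.02 over all genes tested.

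**Figure D1:**
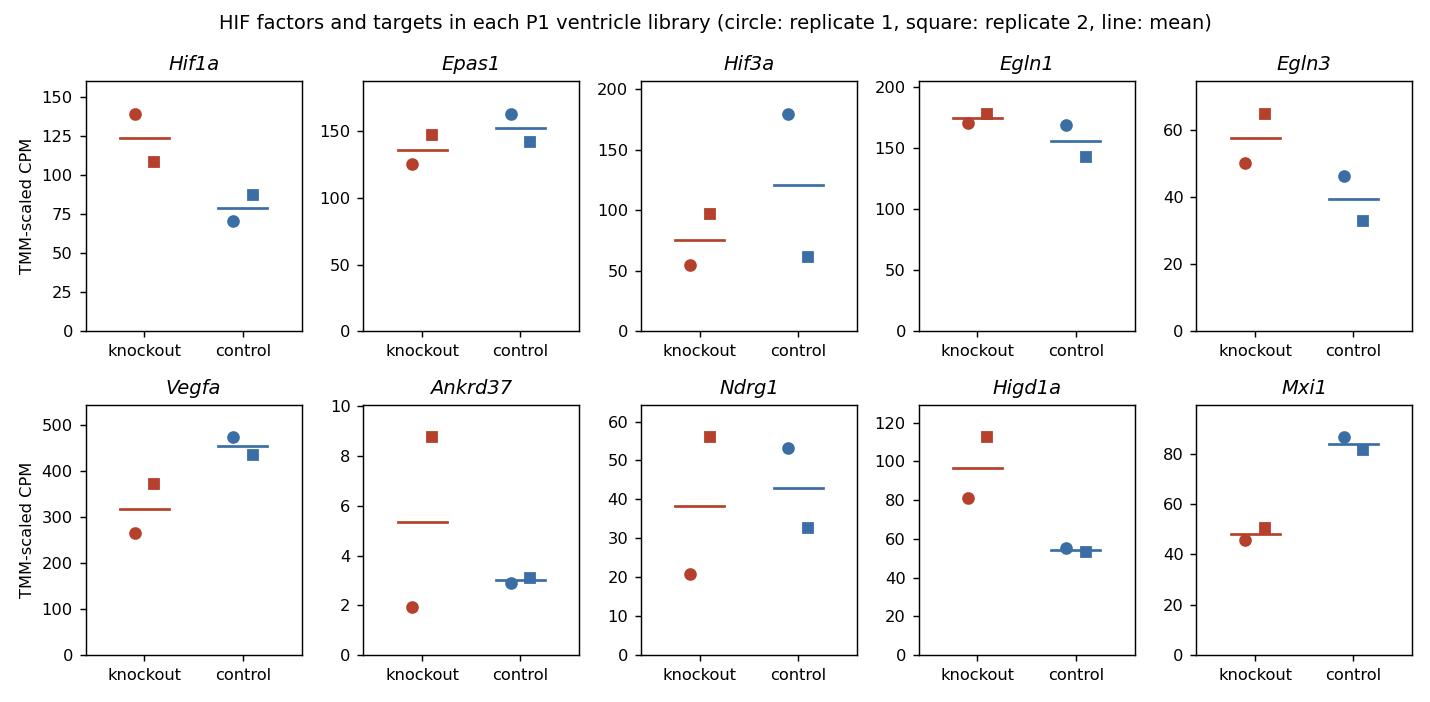
TMM-scaled CPM of the 10 genes (y axis, from 0) in each library, with knockout-labelled libraries on the left and controls on the right; circles are replicate 1, squares replicate 2 and lines group means. Mxi1, at 45.6 and 50.5 CPM against 86.4 and 81.3 CPM, shows the tightest separation, while Hif3a, Ndrg1 and Ankrd37 spread widely within a group.

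Among the alpha subunits, Hif1a was the only one whose groups did not overlap. Hif1a (ENSMUSG00000021109, chromosome 12, 73901375 to 73947530), the broadly expressed subunit that drives glycolytic genes, was at 140 and 109 CPM in knockout-labelled ventricles 1 and 2, against 70.4 and 87.2 CPM in controls 1 and 2. Both knockout-labelled libraries were above both controls, and the nearest pair differed by a ratio of 1.25. The log2 fold change was 0.66 ± 0.21 (SE; edgeR adjusted p = 0.145; adjusted p = 0.0463, DESeq2). In the authors' deposited table its adjusted p was 0.0546, on the other side of the threshold. Leaving out a library ended the DESeq2 call in 3 of 4 cases (adjusted p = 0.0993 without knockout-labelled 1, 0.899 without control 1 and 0.367 without control 2). Hif1a transcripts have a GC content of 41.3%, among the 3640 protein-coding genes of lowest GC content, whose median log2 fold change was 0.20, against -0.28 in the 3640 of highest. With GC content and length trends removed the log2 fold change of Hif1a was 0.59. Exons of Hif1a overlap the antisense gene Gm15283, which had 104 and 73 counts in the knockout-labelled ventricles and 77 and 73 in the controls.

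Epas1 encodes HIF-2α, which is prominent in endothelial cells, and lies on chromosome 17 (86753700 to 86833410). It was at 125 and 147 CPM in the knockout-labelled ventricles and at 163 and 142 CPM in the controls, so the groups overlapped. Its log2 fold change was -0.16 ± 0.18 (SE; edgeR adjusted p = 0.626). The 8 endothelial markers beside it summed to 1352 and 1987 CPM in the knockout-labelled ventricles and 1534 and 1530 CPM in the controls. Of these markers 3 were lower without overlap and 0 higher, where 29.7% and 26.5% of all tested genes were. DESeq2 called 0 of the markers in either direction. Their part in the level of Epas1 was not tested.

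Hif3a, the third subunit, is known for splice forms that restrain the other HIFs and lies on chromosome 7 (17031507 to 17062427). It was at 54.7 and 96.6 CPM in the knockout-labelled ventricles and at 180 and 61.5 CPM in the controls. Control 1 alone was high, by a ratio of 2.92 over control 2, and the other 3 libraries lay between 54.7 and 96.6 CPM. The log2 fold change was -0.67 ± 0.52 (SE; edgeR adjusted p = 0.478) and turned to 0.30 without control 1, the library that also held the T-cell transcripts, whose part was not tested. The counts are per gene and do not separate the splice forms.

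Compared per kilobase of exon, the order of the alpha subunits differed between libraries. Epas1 had 22.4 and 26.2 RPKM in the knockout-labelled ventricles and 29.2 and 25.4 RPKM in the controls. Hif1a had 23.7 and 18.4 RPKM in the knockout-labelled ventricles and 11.9 and 14.8 RPKM in the controls. Hif3a had 8.16 and 14.4 RPKM in the knockout-labelled ventricles and 26.8 and 9.17 RPKM in the controls. Epas1 was thus the most abundant of the 3 in every library but knockout-labelled 1, where Hif1a was slightly above it. Hif1a made up 43.6% and 31.2% of the 3 together in the knockout-labelled ventricles, against 17.6% and 29.99% in the controls, so that knockout-labelled 2 and control 2 differed little. The ratio of Hif1a to Epas1 was 1.05 and 0.703 in the knockout-labelled ventricles and 0.409 and 0.583 in the controls, without overlap, a mean difference of 0.82 on the log2 scale (exact permutation test, two-sided p = 0.333, which is the smallest p that 2 libraries against 2 allow).

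**Figure D2:**
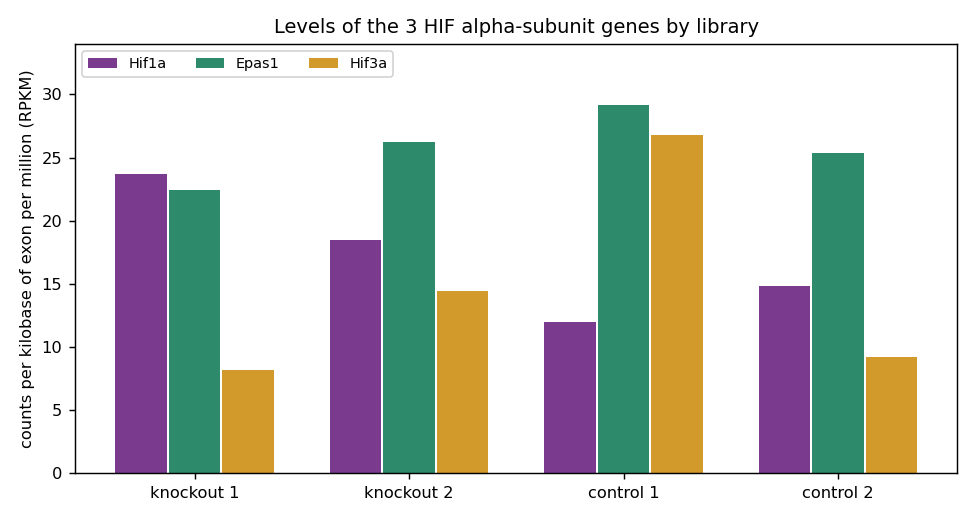
Levels of Hif1a, Epas1 and Hif3a in RPKM (CPM per kilobase of exon; y axis from 0) for each library, with 1 bar a gene. Hif1a stands at 23.7 and 18.4 RPKM in the knockout-labelled ventricles against 11.9 and 14.8 RPKM in the controls, and Hif3a reaches 26.8 RPKM in control 1 only.

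None of the hydroxylases that mark the alpha subunits passed the test, and they did not lie to the same side: Egln1 and Egln3 were higher and Egln2 lower in the knockout-labelled ventricles, each without overlap, though Egln1 turned to -0.08 with library totals alone. Egln3 (PHD3; chromosome 12, 54178981 to 54203860) was at 50.2 and 64.8 CPM in the knockout-labelled ventricles and at 46.2 and 32.7 CPM in the controls. The groups did not overlap, but knockout-labelled 1 and control 1 differed by a ratio of only 1.09. The log2 fold change was 0.54 ± 0.23 (SE; edgeR adjusted p = 0.230), and DESeq2 called it with knockout-labelled 1 left out (adjusted p = 0.0414) but not with all 4 libraries (adjusted p = 0.192). Egln1 (PHD2; chromosome 8, 124908587 to 124949324), the main oxygen sensor of the family, was at 171 and 179 CPM in the knockout-labelled ventricles and at 169 and 143 CPM in the controls. Knockout-labelled 1 and control 1 were almost equal, with a log2 fold change of 0.16 ± 0.18 over all 4 libraries (SE; edgeR adjusted p = 0.626). Per kilobase, Egln3 stood at 0.397 and 0.490 of the level of Egln1 in the knockout-labelled ventricles and at 0.369 and 0.309 in the controls. Egln2, the further family member, was at 58.2 and 54.7 CPM in the knockout-labelled ventricles and at 77.2 and 66.5 CPM in the controls (log2 difference -0.35 ± 0.16, SE; adjusted p = 0.258, edgeR).

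Mxi1 had the lowest log2 fold change of the 10 genes and the smallest SE. Mxi1 (ENSMUSG00000025025, chromosome 19, 53310518 to 53375810) encodes a MAX partner that opposes MYC at E-boxes. It was at 45.6 and 50.5 CPM in the knockout-labelled ventricles, against 86.4 and 81.3 CPM in the controls. Both knockout-labelled libraries were below both controls, by ratios between 0.528 and 0.622 over the 4 pairs of libraries. The log2 fold change was -0.80 ± 0.16 (SE; edgeR adjusted p = 0.0925; adjusted p = 0.00512, DESeq2), and the authors' deposited table gave -0.781 with an adjusted p of 0.00478. With 1 library left out the edgeR value stayed between -0.87 and -0.68, and the DESeq2 call was lost without either control (adjusted p = 0.676 without control 1 and 0.414 without control 2). With GC content and length trends removed it was -0.75.

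Higd1a lay higher. Higd1a (ENSMUSG00000038412, chromosome 9, 121848563 to 121858362) encodes a small hypoxia-induced protein of the inner mitochondrial membrane that associates with the respiratory chain. It was at 80.9 and 112 CPM in the knockout-labelled ventricles, against 55.4 and 53.1 CPM in the controls. The controls were close together and both knockout-labelled libraries lay above them, the nearest pair by a ratio of 1.46. The log2 fold change was 0.83 ± 0.20 (SE; edgeR adjusted p = 0.108; adjusted p = 0.0119, DESeq2), and the authors' deposited table gave 0.856 with an adjusted p of 0.0129. It was 1.10 without knockout-labelled 1 and 0.59 without knockout-labelled 2, and the DESeq2 call was lost when any library other than knockout-labelled 1 was left out. Counts from the mitochondrial genome were also higher, at 10.2% and 14.4% of gene counts in the knockout-labelled ventricles and 5.25% and 7.65% in the controls. Their order was the same as that of Higd1a between the knockout-labelled libraries. It was opposite between the controls, where Higd1a was almost equal. Leaving the genes of that genome out of the fit, a choice made after seeing the data, gave 0.83 for Higd1a (edgeR adjusted p = 0.108). That fit does not adjust for mitochondrial content, whose part was not tested. Gm9790 shares 288 bases of the Higd1a transcript at 99.3% identity and had 81 and 63 counts in the knockout-labelled ventricles and 29 and 28 in the controls. Higd1a itself had 3587 and 3326 counts in the knockout-labelled ventricles and 2585 and 2600 in the controls, and how reads were split between them is uncertain.

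Vegfa, the vascular growth factor and the best known HIF target, leaned the other way. Vegfa (chromosome 17, 46016993 to 46032369) was at 264 and 370 CPM in the knockout-labelled ventricles and at 472 and 433 CPM in the controls. Both knockout-labelled libraries were below both controls, the nearest pair by a ratio of 0.854. The log2 fold change was -0.52 ± 0.23 (SE; edgeR adjusted p = 0.252; adjusted p = 0.224, DESeq2). It was -0.77 without knockout-labelled 2, where DESeq2 called it (adjusted p = 4.84e-04), and -0.24 without knockout-labelled 1. Per kilobase Vegfa was the most abundant of the 10 genes in all 4 libraries, at 61.5 and 86.4 RPKM in the knockout-labelled ventricles and 110 and 101 RPKM in the controls.

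Ankrd37 and Ndrg1 differed more within the knockout label than between labels. Ankrd37 (chromosome 8, 45996902 to 46005707), an ankyrin-repeat protein with HIF-responsive transcription, was at 1.94 and 8.75 CPM in the knockout-labelled ventricles and at 2.91 and 3.08 CPM in the controls. The knockout-labelled libraries thus lay on either side of the controls. Its log2 fold change of 0.83 ± 0.67 (SE; edgeR adjusted p = 0.502) became -0.62 without knockout-labelled 2 and 1.596 without knockout-labelled 1. DESeq2 called it in the last of these cases (adjusted p = 0.0259). These values rest on 86 and 259 counts in the knockout-labelled ventricles and 136 and 151 in the controls. Exons of Ankrd37 overlap those of Ufsp2 and Lrp2bp on the opposite strand, and as the strand setting of the counting is not given, its value is uncertain. Ndrg1 (chromosome 15, 66929318 to 66969640), a stress-responsive protein induced by low oxygen, was at 20.7 and 55.9 CPM in the knockout-labelled ventricles and at 53.1 and 32.6 CPM in the controls. Its log2 fold change was -0.16 ± 0.48 (SE; edgeR adjusted p = 0.865), and leaving out single libraries moved it between -1.04 and 0.44, with a DESeq2 call only without knockout-labelled 2 (adjusted p = 0.0376).

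**Figure D3:**
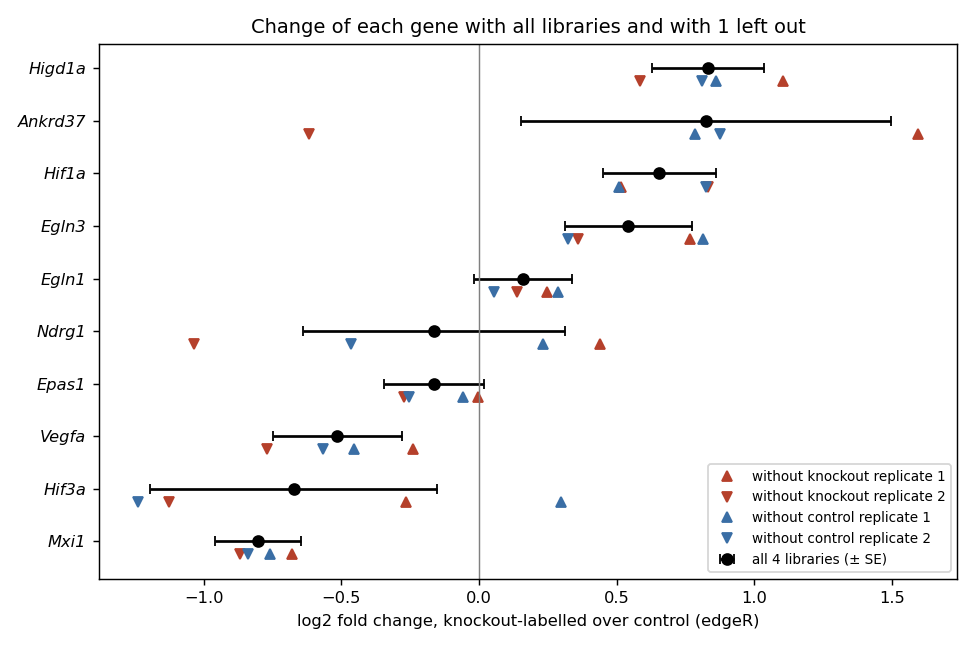
Log2 fold change of knockout-labelled over control libraries for the 10 genes (x axis; rows ordered by value) from edgeR with all 4 libraries (black, ± SE) and with 1 library left out (triangles). Mxi1 stays between -0.87 and -0.68 whichever library is left out, whereas Ankrd37, Ndrg1 and Hif3a cross 0.

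The knockout-labelled libraries also differed from each other across the set. Knockout-labelled 2 was above knockout-labelled 1 for 9 of the 10 genes, all but Hif1a, while over all tested genes the share was 50.2%. It was more than 1.5 times higher for 3 of the 10, at 4.52 times for Ankrd37, 2.70 times for Ndrg1 and 1.77 times for Hif3a, against 14.4% of all genes. The controls differed too, with control 1 above control 2 for 8 of the 10 genes, all but Hif1a and Ankrd37, against 50.2% of all genes. The largest ratios there were 2.92 for Hif3a and 1.63 for Ndrg1, and the median difference over the 10 was 0.16 in log2(CPM + 1). Among 43 further non-metabolic HIF targets, knockout-labelled 2 was above knockout-labelled 1 for 35, or 81.4%. The same was so for 9 of 11 genes of the MYC-MAX network (81.8%), for 13 of 23 metabolic HIF targets (56.5%) and for 7 of 20 HIF regulators (35%), so the tilt was not seen in HIF targets alone. Ier3, Stc2 and Edn1 stood 3.74, 3.33 and 3.21 times higher there. Knockout-labelled 2 also had the smallest total, 34027143 counts, and the most multiply mapped reads, 29.7% of those counted. Their part in the difference was not tested.

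**Figure D4:**
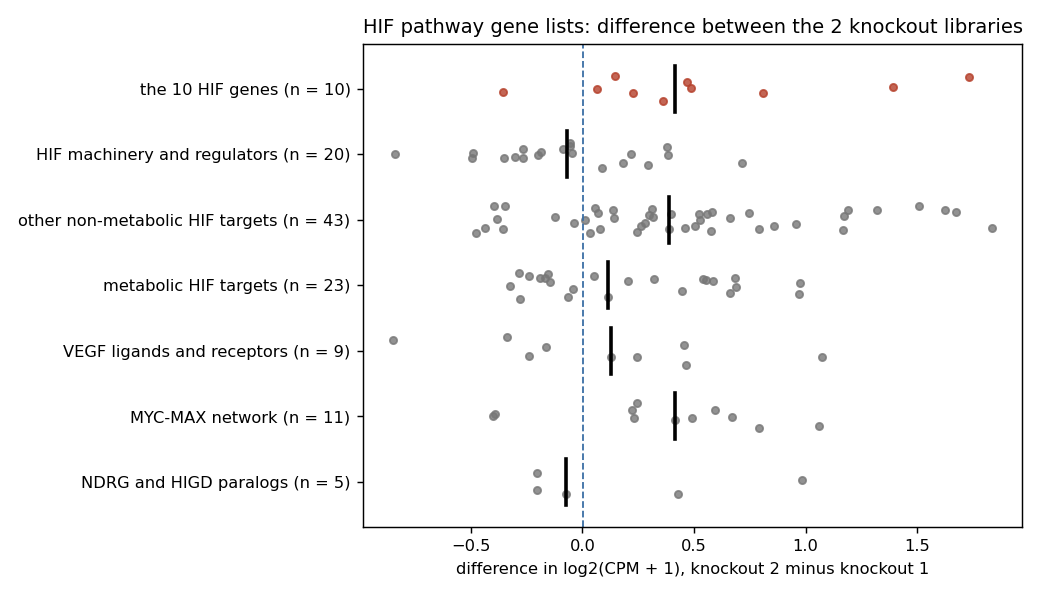
Difference in log2(CPM + 1) between knockout-labelled library 2 and knockout-labelled library 1 (x axis) for the genes of each list, with black bars at list medians and a dashed line at the median of all tested genes. The medians of the 10 HIF genes and of the further non-metabolic targets lie at 0.42 and 0.39, that of the MYC-MAX network at 0.41 and that of the HIF regulators at -0.07.

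Regulators of HIF lay on both sides, with 8 higher and 6 lower without overlap (26.5% and 29.7% of all tested genes). Groups did not overlap for 70% of the list, against 56.2% of all genes. Of 20 tested regulators, edgeR called 0 and had 6 higher and 4 lower ones at unadjusted p under 0.05 (11.8% and 11.2% of all genes), and DESeq2 called 4 higher and 0 lower (6.5% and 4.68%). Hsp90aa1, a chaperone that stabilises Hif1a protein, was at 262 and 305 CPM in the knockout-labelled ventricles and at 144 and 158 CPM in the controls. Its log2 fold change was 0.91 ± 0.19 (SE; edgeR adjusted p = 0.0925; adjusted p = 4.67e-04, DESeq2). Eloc and Cul2, elongin C and the cullin of the von Hippel-Lindau ligase, had log2 fold changes of 0.97 ± 0.20 and 0.70 ± 0.18, and the mitochondrial chaperone Hspa9 had 0.78 ± 0.21. All 3 were among the DESeq2 calls. The lower genes at unadjusted p under 0.05 were the co-activators Ep300 and Crebbp, at -0.54 ± 0.17 and -0.55 ± 0.21, Cited2, which competes with HIF for them, at -0.50 ± 0.20, and Os9 at -0.43 ± 0.17. Vhl itself and the beta subunit Arnt had log2 fold changes of 0.07 ± 0.19 and -0.13 ± 0.17 with overlapping groups. The list's median was 0.07, and -0.16 with library totals alone, a scaling that put the median of all genes at -0.26.

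Of 43 further non-metabolic targets tested, edgeR called 0 and had 8 higher and 5 lower ones at unadjusted p under 0.05, where all genes had 11.8% and 11.2%. DESeq2 called 6 higher and 3 lower, where it called 6.5% and 4.68% of all genes. Groups did not overlap for 13 higher and 9 lower genes, or 51.2%, close to the 56.2% of all genes, and the list's median was 0.15. Tfrc, the transferrin receptor for iron uptake, was at 323 and 254 CPM in the knockout-labelled ventricles and at 69.8 and 74.3 CPM in the controls. It had the largest log2 fold change of the list, 2.001 ± 0.20 (SE; edgeR adjusted p = 0.0925; adjusted p = 9.36e-17, DESeq2). Its messenger RNA is also stabilised by iron regulatory proteins, so it is not a readout of HIF alone. The cytokine Mif, the mitochondrial protein gene Fam162a and the matrix crosslinking enzyme Loxl2 had log2 fold changes of 1.64 ± 0.35, 1.22 ± 0.29 and 0.84 ± 0.20. Mif has near-identical pseudogene copies, so its counts are uncertain. Angptl4, an inhibitor of lipoprotein lipase that also answers to fatty acids, was at 131 and 96.8 CPM in the knockout-labelled ventricles and 224 and 250 CPM in the controls, with a log2 fold change of -1.05 ± 0.21 (SE; edgeR adjusted p = 0.0925). Zfp395 was likewise lower, by a log2 fold change of -0.72 ± 0.19. The mitophagy receptors Bnip3 and Bnip3l and the carbonic anhydrase Car9 had log2 fold changes of 0.40 ± 0.38, 0.04 ± 0.17 and 0.07 ± 0.42 with overlapping groups.

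The metabolic targets were the list with the highest median. Of 23 tested, 21 had a positive log2 fold change, and their median was 0.51 (scaling by library totals gave 0.28, and 0.72 was found with GC content and length trends removed). edgeR called 0 and had 11 higher and 0 lower ones at unadjusted p under 0.05 (11.8% and 11.2% of all genes), and DESeq2 called 8 higher and 0 lower (6.5% and 4.68%). Without overlap 14 were higher and 1 lower, where 26.5% and 29.7% of all tested genes were. Together these are 65.2% of the list, against 56.2% of all genes. The lactate exporter Slc16a3, the aldolase Aldoc and the glycolytic kinase Pgk1 had log2 fold changes of 1.87 ± 0.29, 1.37 ± 0.23 and 1.16 ± 0.20 (SE; edgeR adjusted p = 0.0925 each). The glucose transporter Slc2a1, at 28.2 and 56.5 CPM in the knockout-labelled ventricles and 30.7 and 23.0 CPM in the controls, overlapped between the groups.

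**Figure D5:**
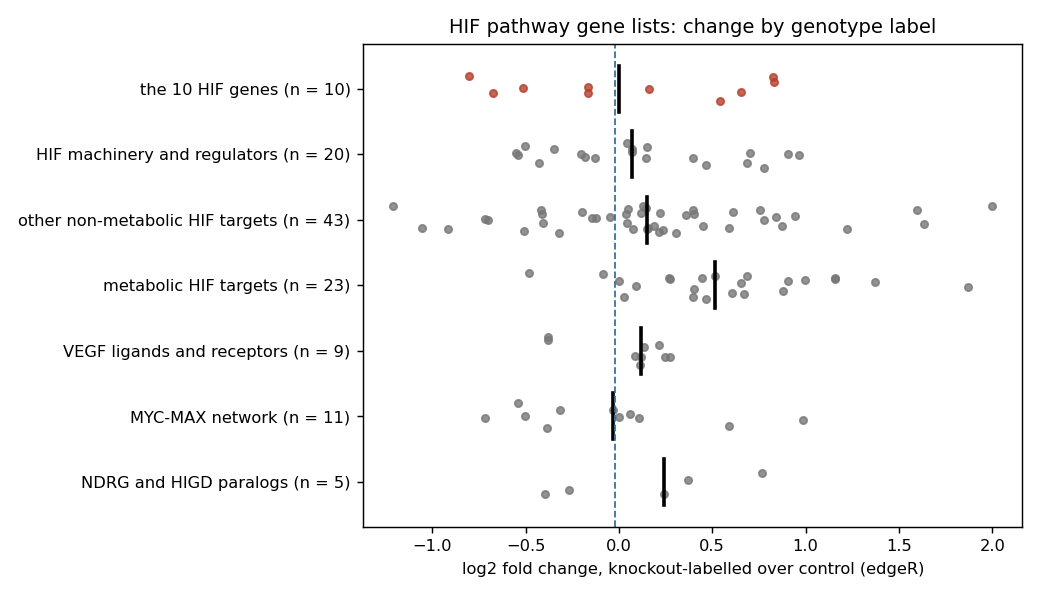
Log2 fold change of knockout-labelled over control libraries (x axis, edgeR) for the 10 HIF genes and 6 further lists, with black bars at list medians and a dashed line at the median of all tested genes (-0.02). The metabolic targets have a median of 0.51, and the 10 genes spread from -0.80 to 0.83.

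Partners and relatives of the targets gave few calls. Of 9 ligands and receptors of the VEGF family beside Vegfa, edgeR and DESeq2 called 0, where they called 0.011% and 11.2% of all genes. At unadjusted p under 0.05 edgeR had 0 of them, against 23.0% of all genes. The groups were without overlap for 22.2% of this list, against 56.2% of all genes. The main endothelial receptor Kdr was at 203 and 160 CPM in the knockout-labelled ventricles and 215 and 257 CPM in the controls (log2 difference -0.38 ± 0.21, SE; adjusted p = 0.322, edgeR). The lymphatic receptor Flt4 and the co-receptor Nrp2 had log2 fold changes of 0.24 ± 0.18 and -0.38 ± 0.32. In the MYC-MAX network, DESeq2 called 1 of 11 genes, where it called 11.2% of all genes. This was Mnt, a repressor that like Mxi1 pairs with MAX, which was at 17.9 and 21.1 CPM in the knockout-labelled ventricles and 34.3 and 29.8 CPM in the controls. Its log2 fold change was -0.72 ± 0.19 (SE; edgeR adjusted p = 0.116; adjusted p = 0.0473, DESeq2). Mlxip had -0.54 ± 0.17, and Mxd3, a relative of Mxi1 linked to dividing cells, had 0.98 ± 0.40. The 8 proliferation markers summed to 448 and 579 CPM in the knockout-labelled ventricles and 186 and 254 CPM in the controls. Of these markers 7 of 8 were higher without overlap, against 26.5% of all tested genes. Their part in the values of the network was not tested. Myc itself was at 25.2 and 35.8 CPM in the knockout-labelled ventricles and 40.0 and 16.5 CPM in the controls, with overlapping groups. Of the relatives of Ndrg1, Ndrg4, which is prominent in heart, was at 397 and 344 CPM in the knockout-labelled ventricles and 217 and 218 CPM in the controls (log2 difference 0.77 ± 0.19, SE; adjusted p = 0.107, edgeR; adjusted p = 0.00181, DESeq2). Ndrg2 and Ndrg3 had -0.40 ± 0.23 and -0.27 ± 0.17. Of the relatives of Higd1a, Higd2a and Higd1b had 0.24 ± 0.21 and 0.37 ± 0.43 with overlapping groups, both turning negative with GC content and length trends removed.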

How the data were processed

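Ventricular polyA RNA of newborn mice was sequenced as 4 stranded Kapa libraries, 2 knockout-labelled and 2 control. The deposited counts are whole reads per gene, made with STAR 2.5.3a, HTSeq 0.6.1 and build GRCm38, per the submitters' processing notes, with the strand setting, read length and annotation release not given in the sources used here. The authors' deposited table repeats these counts in every gene and adds the authors' log2 fold changes, p-values and adjusted p-values, for which the notes name DESeq2 1.18. Its 4 columns of normalized values were not used. The 5 HTSeq summary rows were kept out of library sizes; multiply mapped reads were 23.9% and 29.7% of those counted in knockout-labelled libraries 1 and 2 and 19.4% and 21.0% in controls 1 and 2.

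Of 53465 genes, 53360 were matched by identifier to GENCODE on GRCm38. Tests used edgeR 4.0.16 under R 4.3.3 (filterByExpr, TMM, quasi-likelihood test, Benjamini-Hochberg adjustment over the 18157 genes kept, threshold 0.05). DESeq2 1.42.0 and limma-voom 3.58.1 were alternatives, with other scalings and filters, a replicate block, removal of GC content and length trends, and each library left out. Members and lists were chosen with earlier results of these data known. Besides the 10 members and Ctnnb1, named genes were those past the threshold in each further list, filled up by the smallest unadjusted edgeR p. Other genes named were chosen after their values were seen. CPM values are TMM-scaled, and RPKM are these per kilobase of merged exons. Similar transcripts of other genes were sought with BLAST 2.17.0 at 90% identity over at least 100 bases.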

Additional observations from a re-analysis of the deposited data

How the results depend on the processing

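Over 19 alternatives, 5 of the 10 HIF genes kept their direction (Hif1a, Egln3, Vegfa, Higd1a and Mxi1), as did 26 of the 35 named genes. Of the genes called higher and lower in all, edgeR had 2 and 0. DESeq2 gave 1020 and 734, no filter on low counts 313 and 241, and limma-voom 0 higher. The replicate block, entered because both groups use the numbers 1 and 2, gave 9 and 9, and with GC content and length trends removed 0 higher. Deviations of libraries with the same number correlated at -0.116 across genes. The block with crossed numbers, chosen after seeing the data, gave 501 and 440 and called 1 of the 10 genes higher and 1 lower. No call of a HIF gene arose under the block as numbered. Leaving out single libraries, under edgeR and DESeq2 together, gave 0 to 1431 genes higher and 0 to 991 lower, and 0 to 3 of the 10 in each direction. DESeq2 with all libraries called 2 of the 10 higher and 1 lower. Each such fit leaves 1 library in a group, which is assumed to vary like the others. The cause of these differences was not tested.

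Median log2 fold changes over single libraries left out ran from -0.45 to 0.35 for the 10 genes, -0.015 to 0.19 for the machinery, -0.10 to 0.39 for non-metabolic and 0.43 to 0.62 for metabolic targets, -0.0044 to 0.30 for the VEGF family, -0.40 to 0.048 for the MYC-MAX network and -0.16 to 0.50 for the paralogs of Ndrg1 and Higd1a. Library totals alone, which put the median of all genes at -0.26, gave -0.16 for the machinery, -0.10 for non-metabolic targets, 0.28 for metabolic targets, -0.13 for the VEGF family and -0.013 for the paralogs. With GC content and length trends removed the metabolic targets had 0.72 (0.71 with the replicate block) and the paralogs -0.20 (-0.19 with the replicate block).

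Signs turned as follows, with the range over single libraries left out. Library totals alone gave -0.081 for Egln1, -0.0086 for Ctnnb1 and -0.013 for Higd2a. With GC content and length trends removed Higd1b had -0.0096 and Higd2a -0.20, and with the replicate block as well -0.079 and -0.20. Epas1 ranged from -0.27 to 0.0079, Hif3a from -1.24 to 0.33, Ankrd37 from -0.62 to 1.61, Ndrg1 from -1.04 to 0.45, Nrp2 from -0.83 to 0.0061 and Higd1b from -0.30 to 0.90. Ankrd37 had at most 259 counts in a library, and its value is imprecise. It was at 1.94 and 8.75 CPM in the knockout-labelled ventricles, a wide spread, and at 2.91 and 3.08 CPM in the controls.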

Other observations

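Ddit4, a brake on mTOR signalling that is induced by low oxygen and by glucocorticoids, was high in the same library as Hif3a. It was at 50.3 and 72.8 CPM in knockout-labelled ventricles 1 and 2, and at 152 and 48.4 CPM in controls 1 and 2. Hif3a was at 54.7 and 96.6 CPM in the knockout-labelled ventricles and at 180 and 61.5 CPM in the controls. Ddit4 was picked after its values were seen, and with 4 libraries the resemblance was not tested.

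Markers of several other cell types lay lower in part. The 5 macrophage markers summed to 50.5 and 53.3 CPM in the knockout-labelled ventricles and to 95.8 and 76.0 CPM in the controls, with 4 of 5 lower without overlap, all but C1qa. The 5 mural markers summed to 437 and 418 CPM in the knockout-labelled ventricles and to 521 and 534 CPM in the controls, with 3 of 5 lower without overlap, all but Rgs5 and Cspg4. The 6 erythroid markers summed to 763 and 656 CPM in the knockout-labelled ventricles and to 1084 and 1118 CPM in the controls, with 5 of 6 lower without overlap. Over all genes 29.7% were lower without overlap. edgeR called 0 of these markers, and DESeq2 called 2 macrophage, 1 mural and 2 erythroid markers lower, where it called 4.68% of all genes lower.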
